A study of Mus musculus with 6 samples.

Results

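The genes described here are 10 transcription factors of the erythroid and megakaryocyte lineage (Gata1, Gata2, Zfpm1, Klf1, Tal1, Lmo2, Gfi1b, Fli1, Runx1 and Nfe2), chosen by gene symbol from a table of 52459 mouse genes and followed through 6 RNA-seq libraries of megakaryocytic-erythroid progenitors (MEPs), the marrow cells that give rise to platelet-forming megakaryocytes and to red cells. The libraries were 3 from Tmprss6-/- mice (KO) and 3 from wild-type mice (WT), each a pool of sorted cells from 3 mice. Tmprss6 encodes a liver protease that restrains hepcidin, and its loss leaves mice short of iron, the condition the series set out to study. Age and strain are not given in the labels, and the gate kept cells positive for cKit and CD150 and negative for lineage markers, Sca, Fc gamma receptors, CD105 and CD41. All 10 genes passed the filter on low counts, as did 13453 genes in all.

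These factors work as a network. GATA2 acts in stem and progenitor cells and is replaced on shared chromatin sites by GATA1 as erythroid cells mature, a step called the GATA switch, for which GATA1 needs its cofactor FOG1, the product of Zfpm1. TAL1 and LMO2 form a bridge complex with GATA1 and LDB1 on erythroid genes, and GFI1B is a repressor needed for red cells and platelets. KLF1 drives the erythroid program and FLI1 the megakaryocyte program, each opposing the other, RUNX1 supports megakaryocytes and represses Klf1 there, and NFE2 with small MAF proteins is needed for platelet release.

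The data bear on the levels of these genes and not on binding, so the promoters of Gata1, Gata2, Klf1 and Gfi1b are shown only to describe the sequence next to their starts. RefSeq windows (build GRCm38.p6, from 250 bases before to 50 after a start) were at hand for 7 of the 10 genes, 10 windows in all, and capitals mark the GATA motif, searched on both strands as the letters GATA with A or T before them and A or G after them. Each sequence reads 5′ to 3′ on the strand of its gene.
Klf1, chr8:84901732-84902031, plus strand: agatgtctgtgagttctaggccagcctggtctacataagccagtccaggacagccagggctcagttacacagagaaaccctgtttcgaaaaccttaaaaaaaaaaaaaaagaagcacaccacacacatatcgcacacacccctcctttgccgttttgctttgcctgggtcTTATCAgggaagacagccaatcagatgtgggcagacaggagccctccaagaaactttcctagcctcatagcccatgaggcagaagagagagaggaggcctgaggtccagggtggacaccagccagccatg
Gfi1b, chr2:28621933-28622232, minus strand: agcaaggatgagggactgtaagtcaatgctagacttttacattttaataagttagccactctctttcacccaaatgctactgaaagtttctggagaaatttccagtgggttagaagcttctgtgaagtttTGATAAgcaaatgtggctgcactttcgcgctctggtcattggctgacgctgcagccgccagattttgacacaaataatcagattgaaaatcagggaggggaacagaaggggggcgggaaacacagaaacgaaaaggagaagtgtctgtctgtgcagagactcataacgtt
Gata1, chrX:7967861-7968160, minus strand: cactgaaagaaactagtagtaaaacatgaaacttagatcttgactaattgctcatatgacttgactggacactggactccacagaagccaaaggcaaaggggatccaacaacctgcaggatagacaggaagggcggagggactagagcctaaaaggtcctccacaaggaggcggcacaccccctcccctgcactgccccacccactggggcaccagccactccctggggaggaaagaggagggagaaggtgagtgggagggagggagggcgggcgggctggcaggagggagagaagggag
Gata2, upstream start, chr6:88193641-88193940, plus strand: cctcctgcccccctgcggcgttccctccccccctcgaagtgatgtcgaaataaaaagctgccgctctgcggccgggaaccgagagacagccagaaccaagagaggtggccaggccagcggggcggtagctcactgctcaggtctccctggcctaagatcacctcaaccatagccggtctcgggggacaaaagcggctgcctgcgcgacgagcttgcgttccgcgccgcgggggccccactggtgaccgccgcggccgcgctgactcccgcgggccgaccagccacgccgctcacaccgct
Gata2, downstream start, chr6:88198414-88198713, plus strand: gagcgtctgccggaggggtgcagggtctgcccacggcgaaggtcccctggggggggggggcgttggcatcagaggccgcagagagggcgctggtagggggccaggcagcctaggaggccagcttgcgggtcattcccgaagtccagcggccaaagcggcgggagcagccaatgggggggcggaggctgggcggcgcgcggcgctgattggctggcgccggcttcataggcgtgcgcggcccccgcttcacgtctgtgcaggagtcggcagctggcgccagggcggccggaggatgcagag
The Klf1 window held 1 GATA motif, beginning 80 bases before the start, and the Gfi1b window held 1, beginning 120 bases before it. The Gata1 window and both Gata2 windows held 0 matches to these letters. Tal1 had 1 match in the first of its 2 windows, so that 3 of the 10 windows held the motif, against 29.8% of 32817 promoter windows of the same length. A CACC-type motif, searched as CCNCNCCC on both strands, was present in 8 of the 10 windows and in 49.5% of all windows. The letters GGAAGT, an ETS-type motif, were found in 1 of the 10 windows (Zfpm1) and in 23.8% of all windows, and TGTGGT, a RUNX-type motif, in 2 (Klf1 and the upstream Runx1 start) and in 16.8% of all. Overlaps between different motifs were not removed. The deposited counts are per gene, so the starts of Gata2, Tal1 and Runx1 were not measured apart.

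Total counts ran from 13402209 to 22986837 per library. All 8 genes of the sort markers had counts in every library. Of the markers the gate selected for, Kit was at 316, 578 and 1246 CPM (counts scaled to a common library size by TMM) in KO replicates 1 to 3 and at 392, 822 and 1640 CPM in WT replicates 1 to 3, and Slamf1 (CD150) at 22.4 to 53.6 CPM in KO and 24.3 to 47.1 CPM in WT. Genes of markers the gate selected against were transcribed too, with Itga2b (CD41) at 103 to 126 CPM in KO and 91.3 to 146 CPM in WT, and Eng (CD105) at 51.4 to 112 CPM in KO and 56.5 to 119 CPM in WT. The Fc gamma receptor gene Fcgr3 reached 182 CPM and Ly6a (Sca) 13.9 CPM in KO replicate 2, against at most 18.3 and 3.85 CPM in the other 5 libraries. KO replicate 2 stood apart through transcripts of other blood cells. Summed over each fixed marker list, it reached 7793 CPM for 15 eosinophil, basophil and mast cell genes, against 54.2 to 756 CPM in the other 5 libraries, 3711 CPM for 13 neutrophil precursor genes, against 87.7 to 399 CPM, and 2832 CPM for 13 macrophage genes, against 51.4 to 264 CPM. For 12 late erythroblast genes the sum was 5787 CPM there, against 215 to 460 CPM, and for 13 lymphoid and plasma cell genes 1831 CPM, against 278 to 1280 CPM. All 13 macrophage genes had counts in KO replicate 2, and 0 to 2 of them were at 0 in the other 5 libraries. Of the eosinophil, basophil and mast cell list, Tpsb2 alone was at 0 in KO replicate 2, and 1 to 8 genes were at 0 elsewhere. Xist, expressed in females, had 175 counts in KO replicate 3 and 351 in WT replicate 3 and at most 1 elsewhere. The Y-linked gene Ddx3y gave 872 to 1296 counts in the libraries numbered 1 and 2, against at most 1 in those numbered 3. The targeted gene Tmprss6 had 0, 5 and 0 counts in KO and 5, 4 and 0 in WT replicates 1 to 3, too few to check a label. In such pooled samples, fewer cells of a type and less RNA per cell cannot be told apart.

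**Figure D1:**
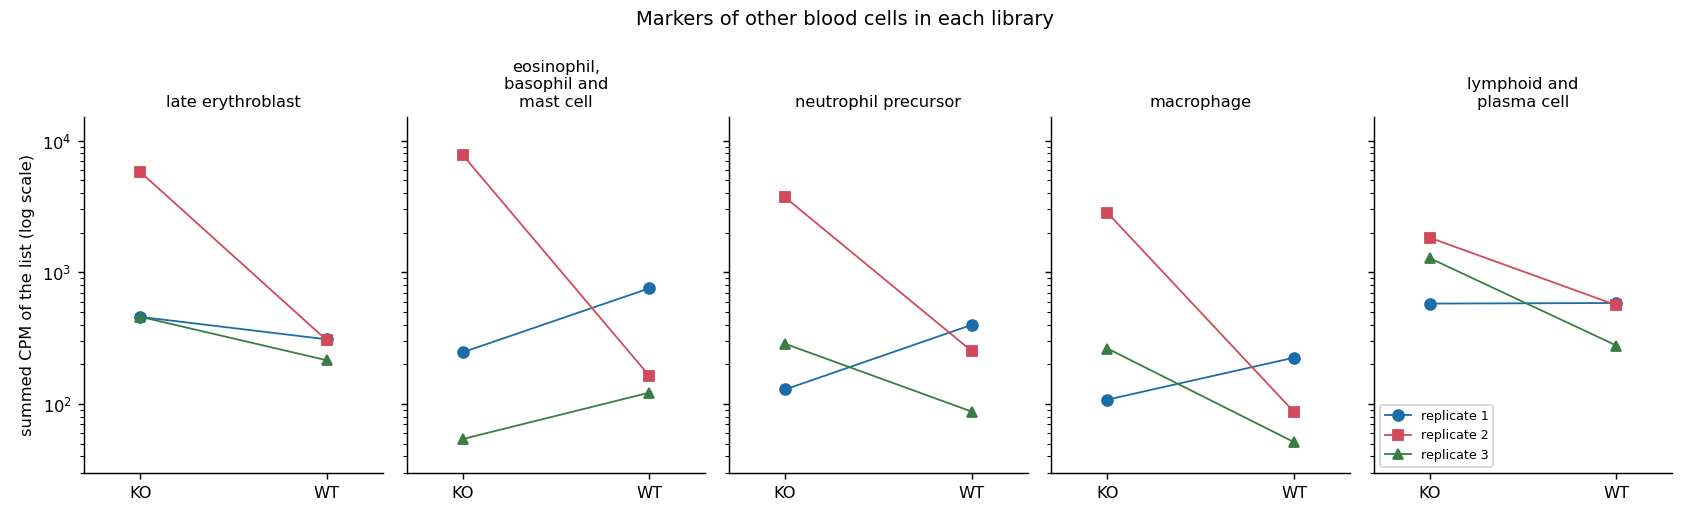
Summed CPM (log axis) of 5 marker lists in the 3 KO and 3 WT libraries, with lines joining libraries of the same replicate number. KO replicate 2 was the highest library for each list, for example 2832 CPM for the macrophage genes against at most 264 CPM elsewhere.

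None of the 10 factors passed edgeR's quasi-likelihood test of genotype, which called 0 of 13453 genes (0%) at an adjusted p under 0.05. Each factor had an adjusted p of 1.00, and 0 of the 10 were among the 234 genes (1.74%) with an unadjusted p under 0.05. DESeq2 called 6 of the 13320 genes (0.045%) to which it gave an adjusted p, 0 of them factors, and limma voom made 0 calls, with 97 genes under 0.05 before adjustment. A missed threshold with 3 pools a group does not show that levels were equal. Of the 10 factors 4 had positive and 6 negative log2 fold changes of KO over WT, with a median of -0.064 against -0.0048 over all genes tested. The median size of the difference, taken without its sign, was 0.12 on the log2 scale, against 0.17 for all genes. The 10 genes together made up 0.295%, 0.275% and 0.396% of the counts in KO replicates 1 to 3 and 0.284%, 0.352% and 0.44% in WT replicates 1 to 3. These shares overlapped between the genotypes, and the replicates numbered 3 had the highest share within each.

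**Figure D2:**
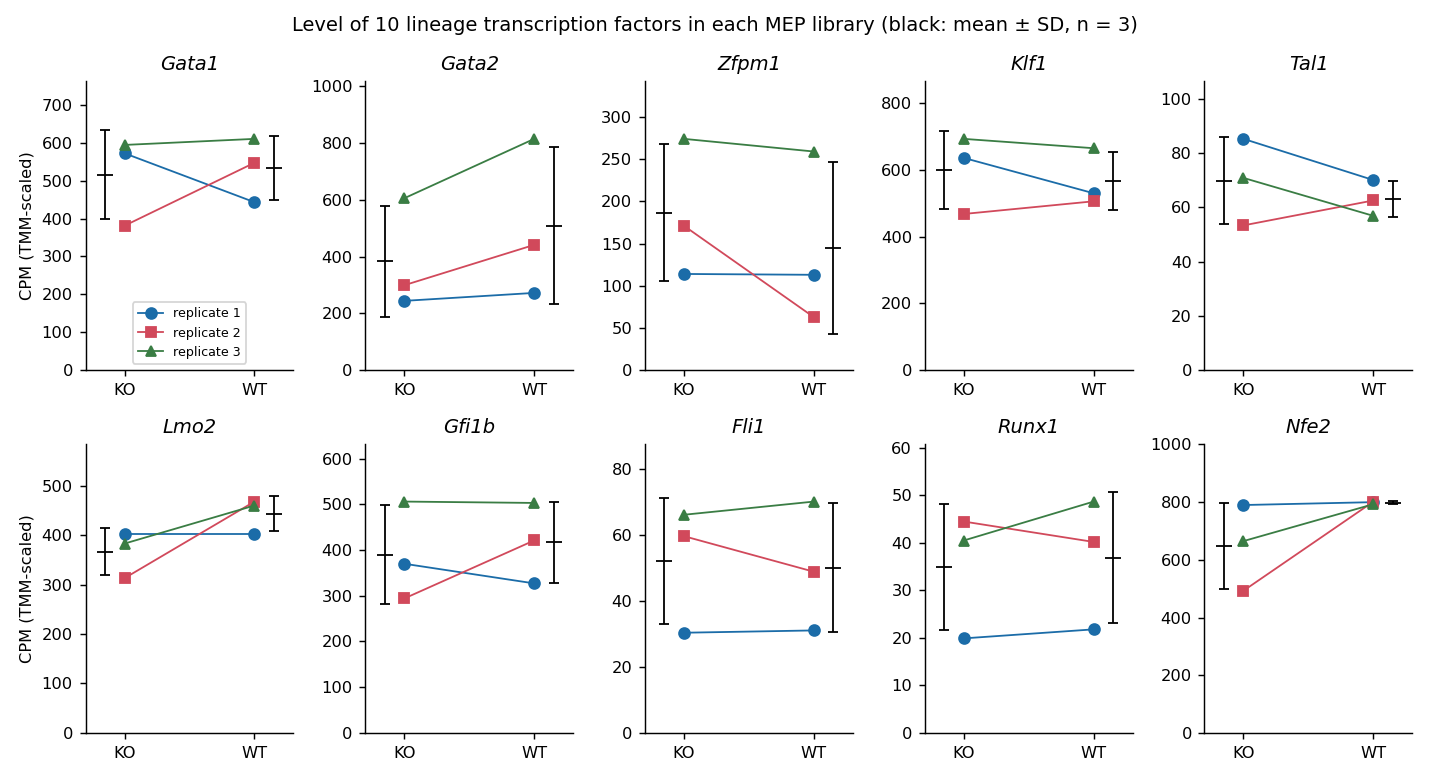
CPM of each factor in the 3 KO and 3 WT libraries, with lines joining libraries of the same replicate number and black bars for mean ± SD (n = 3). For Gata2, Fli1 and Runx1 the spread between numbers is wider than the step between genotypes. KO replicate 2 is the lowest library for Gata1, Klf1, Tal1, Lmo2, Gfi1b and Nfe2.

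Gata1 (ENSMUSG00000031162, chromosome X, 7959260 to 7978071, minus strand), the master regulator of erythroid and megakaryocyte maturation, was at 572, 381 and 594 CPM in KO replicates 1 to 3 and at 443, 547 and 610 CPM in WT replicates 1 to 3. The ranges overlapped widely, KO replicate 2 was the lowest library and replicate 3 was the highest in both genotypes. Its mean was 516 ± 117 CPM in KO and 533 ± 84.5 CPM in WT (SD, n = 3), a log2 fold change of -0.049 (SE 0.30, 95% interval -0.75 to 0.65). Gata1 lies on the X chromosome, and by Xist and Ddx3y the pools numbered 3 were female, so sex and replicate number cannot be told apart here.

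Gata2 (ENSMUSG00000015053, chromosome 6, 88193891 to 88207032, plus strand), the GATA factor of stem and early progenitor cells, was at 244, 299 and 605 CPM in KO replicates 1 to 3 and at 272, 441 and 814 CPM in WT replicates 1 to 3. Each KO library was lower than the WT library of its number, but the genotypes overlapped, since WT replicate 1 was below 2 of the 3 KO libraries. The means were 382 ± 195 CPM in KO and 509 ± 277 CPM in WT, a log2 fold change of -0.41 (SE 0.50, 95% interval -1.58 to 0.75). Being lower in KO in 3 of 3 pairs of the same number held for 13.3% of all genes. With the replicate number as a block the log2 fold change was -0.38 (SE 0.15), with an unadjusted edgeR p of 0.0474 and an edgeR adjusted p of 0.995. In that fit 476 of 13453 genes had an unadjusted p under 0.05, and Gata2 was the only factor among them. On the pairs 1 and 3 alone the log2 fold change was -0.30 (edgeR adjusted p = 0.207, range 0.207 to 1.00 over the alternatives). Without WT replicate 3 it was 0.10, and without KO replicate 2 it was -0.27. Kit, whose receptor marks early progenitors and is in the sort gate, had the same order of libraries as Gata2 and was also lower in KO in 3 of 3 pairs.

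Zfpm1 (ENSMUSG00000049577, chromosome 8, 122282141 to 122337251, plus strand), the gene of the GATA1 cofactor FOG1, was at 114, 171 and 274 CPM in KO replicates 1 to 3 and at 113, 62.7 and 259 CPM in WT replicates 1 to 3. It was higher in KO in 3 of 3 pairs, as were 11.5% of all genes, but the pairs 1 and 3 differed by 0.016 and 0.079 on the log2 scale and pair 2 by 1.44. The means were 186 ± 80.7 CPM in KO and 145 ± 102 CPM in WT, a log2 fold change of 0.36 (SE 0.55, 95% interval -0.91 to 1.63). WT replicate 2 was the low library, and without it the log2 fold change was 0.009.

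Klf1 (ENSMUSG00000054191, chromosome 8, 84901928 to 84905291, plus strand), the erythroid Krüppel-like factor, was at 636, 468 and 693 CPM in KO replicates 1 to 3 and at 530, 506 and 665 CPM in WT replicates 1 to 3. The ranges overlapped, with the lowest and the highest library both in KO. The means were 599 ± 117 CPM in KO and 567 ± 85.8 CPM in WT, a log2 fold change of 0.078 (SE 0.29, 95% interval -0.60 to 0.75). A doubling or halving of Klf1, 1 unit on the log2 scale, lies outside this interval.

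Tal1 (ENSMUSG00000028717, chromosome 4, 115056426 to 115071755, plus strand), a basic helix-loop-helix factor, was at 85.3, 53.4 and 70.9 CPM in KO replicates 1 to 3 and at 70.1, 62.6 and 56.9 CPM in WT replicates 1 to 3. KO held both the highest and the lowest library, and the log2 fold change was 0.14 (SE 0.28, 95% interval -0.50 to 0.78). On the pairs 1 and 3 it was 0.30, with an unadjusted p of 0.0235 and an edgeR adjusted p of 0.272 (0.272 to 1.00 over the alternatives). In those pairs Tal1 and Gata2 were the 2 factors of 10 with an unadjusted p under 0.05, where 13.2% of 13572 genes were, and 0 factors were among the 117 genes (0.862%) that passed the adjusted threshold.

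Lmo2 (ENSMUSG00000032698, chromosome 2, 103957986 to 103981878, plus strand), the LIM protein that holds TAL1 and GATA1 together, was at 402.8, 313.0 and 382.5 CPM in KO replicates 1 to 3 and at 403.1, 468.3 and 459.7 CPM in WT replicates 1 to 3. The genotypes did not overlap, but the highest KO library lay just under the lowest WT library. The means were 366 ± 47.1 CPM in KO and 444 ± 35.5 CPM in WT, a log2 fold change of -0.28 (SE 0.26, 95% interval -0.88 to 0.33). The within-number differences were -0.00093, -0.58 and -0.27 on the log2 scale for pairs 1, 2 and 3, so pair 1 showed next to no difference.

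Nfe2 (ENSMUSG00000058794, chromosome 15, 103248212 to 103258403, minus strand), the large subunit of the NF-E2 factor, whose gene shares a chromosome with Tmprss6, was at 790.3, 492.9 and 664.8 CPM in KO replicates 1 to 3 and at 800.1, 801.8 and 792.7 CPM in WT replicates 1 to 3. The 3 WT libraries lay within a coefficient of variation of 0.603%, and the 3 KO libraries had 23.0%. The means were 649 ± 149 CPM in KO and 798 ± 4.82 CPM in WT, a log2 fold change of -0.30 (SE 0.29, 95% interval -0.97 to 0.38), and pairs 1, 2 and 3 differed by -0.018, -0.70 and -0.25. Lmo2 and Nfe2 were thus the 2 of 10 factors whose KO libraries all lay below all WT libraries, which held for 1.75% of all genes. For 0 factors did all KO libraries lie above all WT libraries, which held for 2.27% of genes, and 4.03% did not overlap in either direction. This count depended on the scaling: with upper quartile scaling and with DESeq2 size factors it held for Lmo2 only, and with library size alone for Nfe2 only. In both genes the lowest library was KO replicate 2, which also carried the markers of other blood cells. That library was the lowest for Gata1, Klf1, Tal1 and Gfi1b too. Without it the log2 fold changes were -0.18 for Lmo2 and -0.14 for Nfe2. The part of the other cells in these differences was not tested.

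Gfi1b (ENSMUSG00000026815, chromosome 2, 28609450 to 28621982, minus strand) was at 370, 294 and 506 CPM in KO replicates 1 to 3 and at 327, 421 and 503 CPM in WT replicates 1 to 3. The ranges overlapped almost fully, and the log2 fold change was -0.10 (SE 0.32, 95% interval -0.84 to 0.64). Its 3 pairs differed by 0.18, -0.52 and 0.0065, so the negative estimate came with a lower KO level in pair 2 alone.

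Fli1 (ENSMUSG00000016087, chromosome 9, 32422204 to 32542861, minus strand), the ETS factor of megakaryocytes, was at 30.4, 59.7 and 66.2 CPM in KO replicates 1 to 3 and at 31.1, 48.9 and 70.2 CPM in WT replicates 1 to 3. Its level went with the replicate number in both genotypes, lowest in replicate 1 and highest in replicate 3, and the log2 fold change was 0.058 (SE 0.41, 95% interval -0.90 to 1.02). Runx1 (ENSMUSG00000022952, chromosome 16, 92601466 to 92826149, minus strand), which is also used by myeloid and lymphoid cells, was at 19.9, 44.5 and 40.5 CPM in KO replicates 1 to 3 and at 21.8, 40.2 and 48.7 CPM in WT replicates 1 to 3. Replicate 1 was again the lowest of each genotype, and the log2 fold change was -0.078 (SE 0.42, 95% interval -1.06 to 0.90). For both genes pair 2 was the pair with the higher KO level, by 0.29 for Fli1 and 0.15 for Runx1, and in pairs 1 and 3 KO was lower, by log2 differences of -0.034 and -0.084 for Fli1 and -0.13 and -0.27 for Runx1. The part of the other blood cells of KO replicate 2 in pair 2 was not tested.

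**Figure D3:**
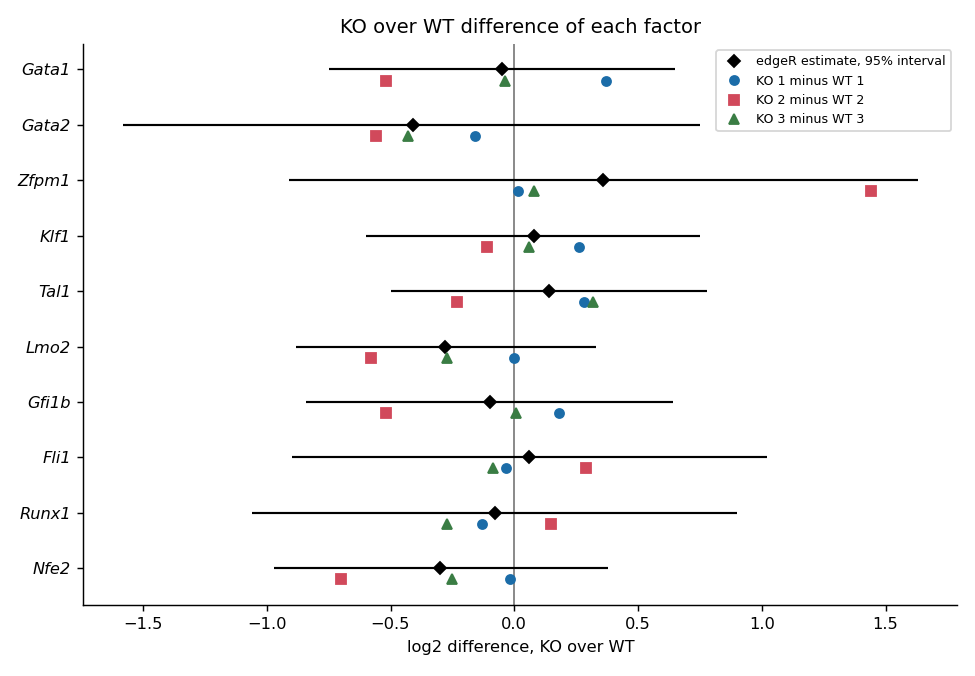
Log2 difference of KO over WT for each factor (horizontal axis), as the edgeR estimate with its 95% interval (black) and as the differences within the 3 replicate numbers (coloured). All 10 intervals include 0. Pair 2 is furthest from 0 for Zfpm1 (1.44), Nfe2 (-0.70), Lmo2 (-0.58), Gata2 (-0.56), Gata1 (-0.52), Gfi1b (-0.52) and Fli1 (0.29), but not for Klf1, Tal1 and Runx1.

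Across the 6 libraries the factors varied more with the replicate number than with genotype. The number took the largest share of the sum of squares of log2 CPM in 7 of 10 factors and in 79.5% of all genes tested, so the factors were close to the background. Its median share was 69.7% over the factors and 74.4% over all genes, where 40% is its share of the degrees of freedom. It was highest for Fli1 (96.8%), Runx1 (96.5%), Gata2 (89.2%) and Klf1 (84.4%). Genotype took the largest share for Lmo2 (54.0%) and Nfe2 (39.9%), as it did in 6.68% of all genes tested. They are also the genes whose groups did not overlap, which is read from the same library values and is no separate result. For Gata1 the part that followed neither was the largest, at 53.7%, as it was in 13.8% of all genes tested. Its pair 1 was higher in KO by 0.37 and its pair 2 differed by -0.52 on the log2 scale. In 4 of 10 factors (Gata2, Zfpm1, Lmo2 and Nfe2) the 3 pairs had the same sign, against 24.8% of all genes.

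**Figure D4:**
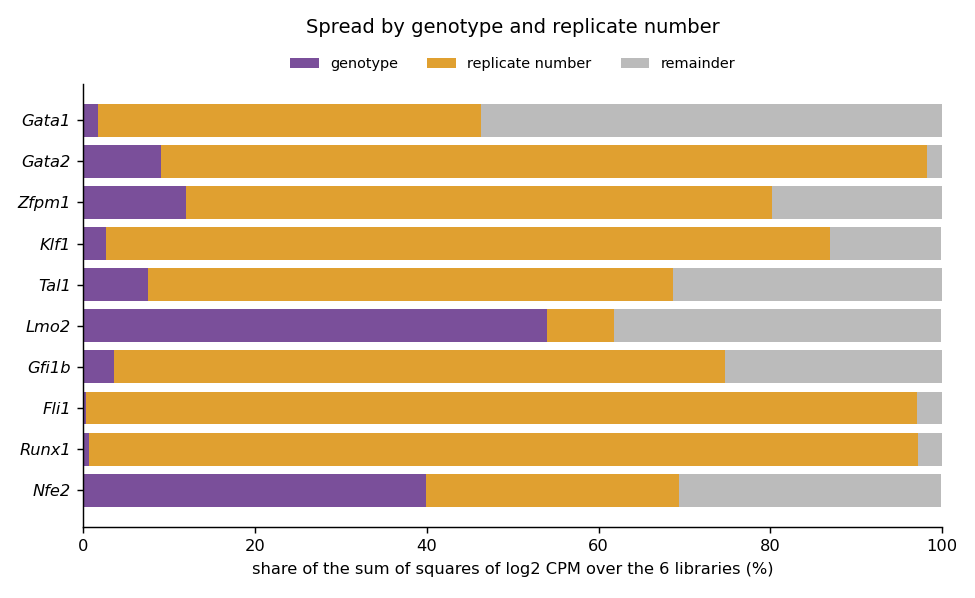
Share of the spread of log2 CPM over the 6 libraries (horizontal axis, percent) that followed genotype, the replicate number, or neither, for each factor. The number accounts for 96.8% in Fli1 and genotype for 54.0% in Lmo2.

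The balance between factors was then read as a ratio within each library, which needs no scaling between libraries. The Gata1 to Gata2 ratio compares the RNA of the factors of the GATA switch and does not measure the switch on chromatin. It was 2.35, 1.27 and 0.982 (CPM over CPM) in KO replicates 1 to 3 and 1.63, 1.24 and 0.75 in WT replicates 1 to 3. Per kilobase of the longest annotated transcript it was 4.41, 2.39 and 1.84 in KO and 3.06, 2.33 and 1.41 in WT, so per length Gata1 exceeded Gata2 in all 6 libraries. Replicate 1 had the highest ratio and replicate 3 the lowest in both genotypes. On the log2 scale the mean ratio was 0.52 ± 0.64 in KO and 0.20 ± 0.57 in WT (SD, n = 3), a difference of 0.32 (two-sided exact permutation p = 0.5, adjusted over 4 ratios 0.90, where 0.1 is the smallest p the design allows). KO was higher in 3 of 3 pairs, by 0.53, 0.038 and 0.39, for which an exact sign-flip test gave p = 0.25, the smallest possible with 3 pairs. The mean of the 3 pair differences was 0.32 ± 0.25 (SD of the pairs), while the unpaired difference was smaller than the SD within either genotype. Without KO replicate 1, which leaves WT replicate 1 with no partner, the difference was -0.038. The part of other blood cells in this ratio was not tested.

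The Klf1 to Fli1 ratio, which sets the erythroid against the megakaryocyte factor, was 20.9, 7.83 and 10.5 (CPM over CPM) in KO replicates 1 to 3 and 17.0, 10.4 and 9.48 in WT replicates 1 to 3. Replicate 1, in which Fli1 was low, was far above the others in both genotypes. The mean log2 ratio was 3.57 ± 0.72 in KO and 3.55 ± 0.45 in WT, a difference of 0.012 (two-sided exact permutation p = 0.9, adjusted 0.90), and the pairs differed by 0.30, -0.40 and 0.14. The Klf1 to Runx1 ratio was 32.0, 10.5 and 17.1 in KO and 24.4, 12.6 and 13.6 in WT replicates 1 to 3. Its mean log2 value was 4.14 ± 0.80 in KO and 3.99 ± 0.51 in WT, a difference of 0.15 (two-sided exact permutation p = 0.7, adjusted 0.90). In both ratios pairs 1 and 3 were higher in KO and pair 2 was lower, and without KO replicate 2 the differences were 0.32 for Klf1 to Fli1 and 0.53 for Klf1 to Runx1.

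The Zfpm1 to Gata1 ratio, cofactor over factor, was 0.20, 0.449 and 0.46 in KO replicates 1 to 3 and 0.256, 0.115 and 0.424 in WT replicates 1 to 3. The lowest value was that of WT replicate 2, where Zfpm1 was low. The mean log2 ratio was -1.53 ± 0.68 in KO and -2.10 ± 0.95 in WT, a difference of 0.58 (two-sided exact permutation p = 0.5, adjusted 0.90). Pairs 1, 2 and 3 differed by -0.35, 1.96 and 0.12, and without WT replicate 2 the difference was 0.071.

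**Figure D5:**
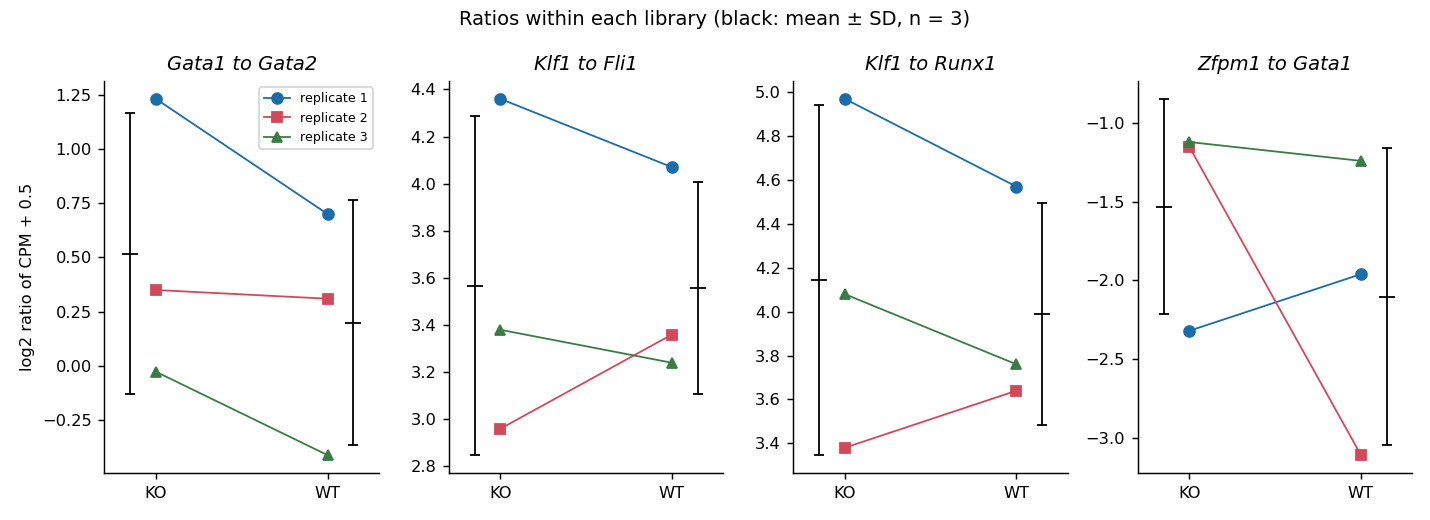
Log2 ratio of CPM + 0.5 of 4 pairs of factors in each KO and WT library, with lines joining libraries of the same number and black bars for mean ± SD (n = 3). The Gata1 to Gata2 lines all slope down towards WT, by 0.53, 0.038 and 0.39, while the other ratios have lines in both directions.

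Between genes, levels can be compared only per length, and CPM per kilobase of the longest annotated transcript (GENCODE M21) is used for this. Klf1 and Nfe2 were the highest factors, at 391 ± 76.5 and 346 ± 79.5 CPM per kilobase in KO and 371 ± 56.1 and 425 ± 2.56 in WT. Their order differed between the genotypes, and in each genotype their ranges overlapped. Gata1 (271 ± 61.7 in KO and 280 ± 44.4 in WT), Lmo2 (215 ± 27.6 and 260 ± 20.8) and Gfi1b (214 ± 58.9 and 229 ± 48.4) followed with overlapping ranges. Gata2 was at 107 ± 54.5 in KO and 143 ± 77.6 in WT and Zfpm1 at 55.0 ± 23.8 and 42.8 ± 30.1, with Gata2 above Zfpm1 in all 6 libraries. Tal1 (16.6 ± 3.80 in KO and 15 ± 1.58 in WT) and Fli1 (15.7 ± 5.75 and 15.1 ± 5.89) could not be put in order. Runx1 was the lowest in both genotypes, at 5.96 ± 2.26 in KO and 6.30 ± 2.35 in WT, and its range lay below that of the next gene in each. With the length of all exons joined in place of the longest transcript, Gfi1b moved ahead of Gata1 and Lmo2, and Klf1 led in both genotypes. Nfe2 then came next in both, but its KO mean of 217 was close to those of Gfi1b (213) and Gata1 (211). Among 13443 tested genes with a length, Klf1 was between the percentiles 97.9 and 99.5 in the 6 libraries and Runx1 between 36.8 and 51.2.

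No gene of the partner list passed the threshold either. Of 32 genes of partners and cofactors (the LDB1 complex, E proteins, CBF beta, small MAF proteins, and the NuRD and LSD1 corepressors), 17 had positive and 15 negative log2 fold changes, with a median of 0.025 against -0.0048 for all genes, and 0 passed edgeR's adjusted threshold in the 6 libraries or in the pairs 1 and 3. Those of smallest p were Lmo4, a LIM protein related to LMO2, at 18.7, 39.5 and 16.4 CPM in KO and 16.8, 16.3 and 13.4 CPM in WT replicates 1 to 3, Maff, a small MAF partner of NFE2, at 1.53 to 1.84 CPM in KO and 1.28 to 3.64 CPM in WT, Mta1, a NuRD subunit, and Ctbp2, a corepressor that FOG1 binds. Mta1 was at 42.7, 61.1 and 99.2 CPM in KO and at 47.5, 16.1 and 76.8 CPM in WT, with its lowest level in WT replicate 2, as for Zfpm1. Ctbp2 was at 22.7 ± 5.53 CPM in KO and 26.3 ± 2.88 CPM in WT. Of 29 other transcription factors of these lineages, 11 had positive and 18 negative log2 fold changes, with a median of -0.064 and 0 past the threshold in either fit. E2f2, a cell cycle factor of erythroid cells, was at 7.22, 93.0 and 12.3 CPM in KO replicates 1 to 3 and at 6.90 to 8.82 CPM in WT, and Ets1, an ETS factor of lymphocytes, at 11.1, 114 and 7.71 CPM in KO and 8.47 to 19.6 CPM in WT, so both were high in KO replicate 2 alone. E2f4 and Nfix had log2 fold changes of 0.33 and 0.61 with overlapping groups.

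Among the genes that these factors are known to control, some erythroid targets and 0 megakaryocyte targets passed the threshold in any fit run. Of 29 tested erythroid targets of GATA1, TAL1 or KLF1, a list that holds Gfi1b itself and E2f2, 23 had positive and 6 negative log2 fold changes, with a median of 1.05 over the 6 libraries and 0.42 without KO replicate 2. No target passed edgeR's adjusted threshold over the 6 libraries. In the pairs 1 and 3, 7 of 29 rose (Alas2, Hba-a1, Hbb-bs, Hbb-bt, Rhag, Trim10 and Tfrc) and 0 fell, against 0.862% of all genes called there. That fit had 1 residual degree of freedom and left out the libraries numbered 2 because KO replicate 2 stood apart. The list was chosen with earlier results of these data known, so this count is a description and no test of the list. DESeq2 called 2 of the targets, Tfrc and Trim10, over the 6 libraries, and edgeR without KO replicate 2 and without a block called 0. Alas2, Hba-a1, Hbb-bs and Hbb-bt, 4 of the 7 that rose, are also late erythroblast markers, as are some other targets. The late erythroblast list summed to 459 and 460 CPM in KO replicates 1 and 3 and to 310 and 215 CPM in WT replicates 1 and 3. Markers of other blood cells also moved in the fit of these pairs. Of 12 tested eosinophil, basophil and mast cell genes 6 fell (Prg2, Prg3, Epx, Ear1, Ear6 and Mcpt8), and the list summed to 247 and 54.2 CPM in KO replicates 1 and 3 and to 756 and 122 CPM in WT replicates 1 and 3. Of 11 neutrophil precursor genes 2 fell (Ltf and Ngp), with list sums of 129 and 287 CPM in KO and 399 and 87.7 CPM in WT. Of 11 lymphoid and plasma cell genes 1 rose (Jchain), with list sums of 579 and 1280 CPM in KO and 585 and 278 CPM in WT, and 0 of 12 macrophage genes passed. The part of these cells, of the late erythroblasts and of the shortage of iron in the result for the erythroid targets was not tested. Tfrc, called by DESeq2 and in the pairs 1 and 3, was at 343, 476 and 204 CPM in KO and at 100, 97.0 and 65.5 CPM in WT replicates 1 to 3. In the same pairs Gata1 and Klf1 had log2 fold changes of 0.16 each, with edgeR adjusted p of 0.585 and 0.542 (up to 1.00 for each over the alternatives). Of 24 megakaryocyte targets of FLI1, RUNX1, GATA1 or NFE2, 14 had positive and 10 negative log2 fold changes, with a median of 0.13 over the 6 libraries and -0.048 without KO replicate 2, and 0 passed in either fit. The 4 of smallest p, Thbs1, Myl9, Alox12 and Tubb1, peaked in KO replicate 2, with 55.9, 12.4, 19.0 and 21.6 CPM. Tubb1, the platelet tubulin gene that NFE2 controls, was at 0.612 and 3.67 CPM in KO replicates 1 and 3 and at 1.06 to 2.42 CPM in WT.

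The summed level of transcription factors of other blood lineages was highest in KO replicate 2. Their 20 genes summed to 177, 859 and 193 CPM in KO replicates 1 to 3 and to 195, 212 and 202 CPM in WT replicates 1 to 3. Of the 16 that passed the filter, 15 had positive log2 fold changes and 0 passed edgeR's threshold, and their median of 1.16 was 0.052 without KO replicate 2. Irf8, a monocyte and dendritic cell factor, was at 46.0, 317 and 17.1 CPM in KO and at 37.2, 29.6 and 12.0 CPM in WT replicates 1 to 3, and Ebf1, of B cells, and Cebpd also peaked in that library, with 28.2 and 11.1 CPM. Not all of the list peaked there: Zeb2, named after its values were seen, was at 34.7, 116 and 95.1 CPM in KO and at 52.2, 87.6 and 119 CPM in WT replicates 1 to 3. Spi1, the gene of the myeloid factor PU.1 and also named after its values were seen, was at 49.7, 106 and 46.4 CPM in KO and at 46.0, 47.3 and 43.7 CPM in WT. Spi1 thus did peak in KO replicate 2, and it was expressed in all 6 libraries.

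The genes whose profile over the 6 libraries was most like that of a factor were found among 7370 genes of at least 20 CPM by the root mean square difference of log2 CPM, each gene centred on its own mean. For Gata1 these were Smug1 (0.0583) and Msantd4 (0.0633), against a median of 0.428 over the genes compared, and the nearest other factor was Gfi1b (0.127). For Klf1 they were Stx6 (0.0409) and Ddx18 (0.0423), with Gata1 as the nearest factor (0.134). For Gata2 they were Ripor1 (0.0715) and Il17ra (0.0799), and no other factor came nearer than Fli1 (0.367). For Fli1 they were Mark2 (0.0444) and Prpf4b (0.0505), with Runx1 as the nearest factor (0.136). Among Gata1, Gata2, Klf1 and Fli1, the only factors from which distances were taken, Gata2 lay furthest from its nearest other factor. The remaining factors were not compared with each other in this way, so no grouping of the factors is given. The likeness is a description over 6 libraries that share the replicate numbers.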

How the data were processed

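Read counts per Ensembl gene and library were deposited by the authors as unscaled whole numbers. FastQC 0.11.5, STAR 2.5.3a and edgeR are the tools, and GRCm38.p3 and GRCh38.p3 the builds, per the submitters' processing notes. The counter, strand setting and annotation were not given in the sources used here. Without strand, reads of Fli1, Lmo2 and Runx1 cannot be told from those of overlapping genes on the opposite strand, which held at most 30 counts per library. Zfpm1 lies within Gm20388 on its own strand (0 counts in each library). Fli1 overlaps genes on its own strand too, such as Gm37474 (1 to 29 counts). How reads shared by overlapping genes were counted is not known, so these counts do not bound the effect. The spans of all 10 genes are the same in the deposited table and in GENCODE M21 (GRCm38). The table held 0 rows without a gene name and 0 further columns of sample values. 2 listed genes, Ahsp and Mpig6b, were not matched by symbol.

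Genes were filtered with filterByExpr (minimum count 10, minimum total 15), scaled by TMM and compared with the quasi-likelihood test of edgeR 4.0.16 over all genes, two-sided, with Benjamini-Hochberg adjustment at 0.05. Log2 fold changes are KO over WT, and log2 CPM per library add a prior count of 2. Ratios used CPM + 0.5 and exact permutation tests (scipy 1.17.1) with adjustment over 4 ratios. Alternatives were DESeq2 1.42.0, voom of limma 3.58.1, other scalings, no filter, a replicate block on all pairs or on the pairs 1 and 3 (without the libraries numbered 2, since KO replicate 2 stood apart, which leaves 1 residual degree of freedom), and leaving out each library. R was 4.3.3.

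The factors, gene lists, ratios and tests were chosen with earlier results of these data known. From each list the 4 genes of smallest unadjusted p were to be named, beside all factors, sort and progenitor markers where needed, and the 2 genes most like Gata1, Gata2, Klf1 and Fli1. Genes of these lists called in the pairs 1 and 3 are named as well. Some genes that this rule names are left out of the text.

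Both genotypes carry the replicate numbers 1 to 3. The deviations of each library from its genotype's mean log2 CPM correlated across genes at 0.532, 0.161 and 0.633 for the numbers 1, 2 and 3. Each was over 0.1, so libraries of the same number were taken as pairs in the pair differences, sign-flip tests and block fits. The main edgeR test, with its SEs and intervals, and the permutation tests of the ratios did not use the pairing. This pairing is read from the counts, as no label explains the numbers. Correlations between libraries of different numbers were not computed for comparison. The lowest of the 3 values was that of number 2, which holds KO replicate 2. Intervals and SEs describe the spread between these pools.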

Additional observations from a re-analysis of the deposited data

How the results depend on the processing

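The count of factors called was 0 under all 13 alternatives run, the replicate block among them. Lmo2 and Nfe2 kept a negative log2 fold change under all 13 (-0.36 to -0.14 and -0.47 to -0.14). With the replicate block on the pairs 1 and 3 alone, the sign turned for Gata1 (0.16), Gfi1b (0.09), Fli1 (-0.062) and the Zfpm1 to Gata1 ratio (-0.12). DESeq2, voom, the other scalings, no filter and the block on all pairs turned no sign of a factor. Block values of the ratios over 3 pairs equal the differences of the means, for example 0.32 for Gata1 to Gata2.

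Leaving out 1 library turned other signs, none of a called value. Without WT replicate 3, Gata1, Gata2, Gfi1b and Runx1 were at 0.061, 0.10, 0.061 and 0.17, and Klf1 to Fli1 at -0.15. Without KO replicate 1, Tal1 was at -0.031, Runx1 at 0.20, Gata1 to Gata2 at -0.038, Klf1 to Fli1 at -0.39 and Klf1 to Runx1 at -0.26. Without KO replicate 2, Gata1, Gfi1b and Fli1 were at 0.13, 0.067 and -0.054. Without KO replicate 3, Zfpm1, Klf1 and Fli1 were at -0.034, -0.046 and -0.16. Without WT replicate 1 Fli1 was at -0.20, and without WT replicate 2 Klf1 to Fli1 was at -0.085 and Klf1 to Runx1 at -0.025. The ranges were -0.17 to 0.13 for Gata1, -0.92 to 0.10 for Gata2, -0.034 to 1.09 for Zfpm1, -0.046 to 0.23 for Klf1, -0.031 to 0.30 for Tal1, -0.34 to 0.067 for Gfi1b, -0.20 to 0.38 for Fli1 and -0.35 to 0.20 for Runx1. For the ratios they were -0.038 to 0.59 (Gata1 to Gata2), -0.39 to 0.32 (Klf1 to Fli1), -0.26 to 0.53 (Klf1 to Runx1) and 0.071 to 1.01 (Zfpm1 to Gata1). The causes were not tested. In the main edgeR test, which ignores the pairing, the intervals of Gata2, Zfpm1, Fli1 and Runx1 include changes of 1 log2 unit. Their SEs there were 0.50, 0.55, 0.41 and 0.42, in that order. Blocking on the number over all 3 pairs gave SEs of 0.15, 0.30, 0.16 and 0.17. No intervals are given for the blocked values, so the width of the main intervals does not describe the paired comparison.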
